A study of Mus musculus with 6 samples.

Results

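The integrin and adhesion genes Cd44, Itgae, Itgb7, Itga4, Itgal, Itgb1, Itgb2, Itga6 and Icam1 were followed in activated mouse CD8 T cells that carry or lack MondoA, a transcription factor that responds to glucose and is the product of Mlxip. They were chosen by gene symbol, and all 9 were found among the 57010 gene identifiers of the count table and passed the filter on low counts, which kept 16439 genes. RNA was sequenced from 3 samples of genotype WT and 3 of genotype KO on the C57BL/6 strain. The protocols name MondoAfl/fl mice, with the floxed gene, and MondoAfl/flCD4cre mice, with the same floxed gene and a Cre driven by CD4 regulatory sequence, active from the thymic stage of T cell development. WT is read here as the former and KO as the latter, although the sample titles of both groups contain the word cre. Naive CD8 T cells of both genotypes were sorted from spleen and lymph nodes at 8 weeks of age and stimulated through CD3 and CD28 for 24 hours. If Cre was present in KO alone, its own effect cannot be told apart from that of MondoA loss. Nothing in the labels ties each replicate to its own mouse, so the p-values speak only of the spread among these samples, and its technical share is unknown.

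Integrins are receptors made of an α and a β subunit that hold T cells to other cells and to matrix. Itgal and Itgb2 encode LFA-1, which binds ICAM-1, the product of Icam1, at the contact with antigen-presenting cells and between activated T cells. Itga4 pairs with Itgb1 in the receptor for VCAM-1 and with Itgb7 in the gut-homing receptor for MAdCAM-1. Itgae pairs with Itgb7 in CD103, which binds E-cadherin on epithelium, and Itga6 pairs with Itgb1 in a laminin receptor. CD44 is a receptor for hyaluronan whose surface level rises when T cells are activated. Affinity of integrins is set largely at the protein level, by talin, kindlin and the RAP1 pathway, and transcript levels do not measure it.

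Library totals ran from 26150420 to 34447230 counts, and each of the 9 genes had at least 3012 reads in every library. The marker Cd8a stood between 456 and 687 CPM (counts scaled by TMM to a common library size, as edgeR gives them) and Cd3e between 190 and 225, while Cd4 stayed at or below 4.84. Txnip and Arrdc4, direct targets of MondoA, were the 2 genes called by edgeR over all genes, and both were lower in KO. Mlxip itself averaged 129 ± 11.1 CPM among WT and 86.0 ± 6.54 among KO libraries (SD, 3 each), with an edgeR adjusted p of 0.125. The shallowest library, WT 3, held 61.1 CPM of Gzma, a marker of antigen-experienced cells, against 5.88 to 17.3 CPM elsewhere. Interferon-stimulated genes stood higher in KO 1 and KO 2 than in KO 3. Xist, the marker of female cells, was present at 737 CPM in WT 3 and 668 CPM in KO 2 and below 2 CPM in the others, where Y-linked genes were found instead, so each genotype mixed the sexes in the same ratio. Between these 2 libraries and the other 4, in a model that kept genotype, edgeR called 0.0426% of all genes and 0 of the 9.

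Upstream sequence was available for 5 of the 9 genes, namely Cd44, Icam1, Itga4, Itgb1 and Itgb7, from RefSeq on GRCm38.p6. The counts were made on GRCm39, so positions below belong to the older assembly. The window ran from 250 bases before to 50 bases after the annotated start. MondoA binds DNA with MLX at E-box sequences, so CACGTG, which reads alike on both strands, was searched in the windows. It was found in 0 of the 5 windows, against 7.15% of all 32851 windows, and in the window of the target Arrdc4. At so low a share, 0 of 5 windows cannot set these genes apart from the rest. The window of Txnip, the other target, did not hold it. All 250 of its bases before the RefSeq start lie in exons of the GENCODE annotation. They include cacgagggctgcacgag, where CACGAG stands in place of CACGTG, seen after the search. A search for exact CACGTG cannot find such variants, and variants were not searched in any window. Lack of CACGTG therefore does not show lack of a MondoA site. The 250 bases upstream of Icam1 and of Itgb1 are shown because these were the 2 genes of the set with the smallest p. The Icam1 stretch lies at chr9:21015690-21015939 on the + strand and the Itgb1 stretch at chr8:128685404-128685653 on the + strand. Capitals mark GGAAATTCC, an NF-κB-type sequence searched on both strands after the Icam1 sequence had been seen. It occurred in Icam1, 153 bases before the start, in none of the other 4 windows, and in 0.317% of all windows. A match is a description of the letters and was not tested as a binding site.
Icam1: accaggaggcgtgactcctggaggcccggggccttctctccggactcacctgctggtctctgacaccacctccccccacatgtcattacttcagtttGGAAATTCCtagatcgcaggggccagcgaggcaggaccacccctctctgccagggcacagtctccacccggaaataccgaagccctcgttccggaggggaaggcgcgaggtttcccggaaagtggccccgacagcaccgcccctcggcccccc
Itgb1: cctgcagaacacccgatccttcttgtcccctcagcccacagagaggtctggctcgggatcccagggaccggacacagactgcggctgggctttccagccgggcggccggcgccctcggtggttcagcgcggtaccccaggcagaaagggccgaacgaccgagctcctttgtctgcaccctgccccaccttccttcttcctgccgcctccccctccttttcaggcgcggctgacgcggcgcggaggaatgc

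The question put to the genotypes was which adhesion transcripts differ with the deletion. None of the 9 passed an adjusted p of 0.05 by edgeR (quasi-likelihood, Benjamini-Hochberg over all genes), that is 0 of 9 where 0.0122% of all genes tested did. DESeq2 on the same counts also called 0 of the 9, against 1.28% of the genes it adjusted. Icam1 and Itgb1 were the 2 genes with an unadjusted p under 0.05, both lower in KO, beside 10.8% of all genes (5.77% of all genes lower and 5.05% higher in KO). WT and KO libraries did not overlap for 3 of the 9 genes, Icam1 and Itgb1 lower and Itgb2 higher, against 16.4% of all genes. On the log2 scale the 9 fold changes ran from -0.33 to 0.18, with 5 above 0, 4 below 0 and a median of 0.03. Over all genes tested 47.2% lay above 0 and the median was -0.02. Values below are given in the order of replicates 1, 2 and 3. Because counts come from bulk RNA, fewer cells carrying a transcript and less of it per cell cannot be told apart.

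**Figure D1:**
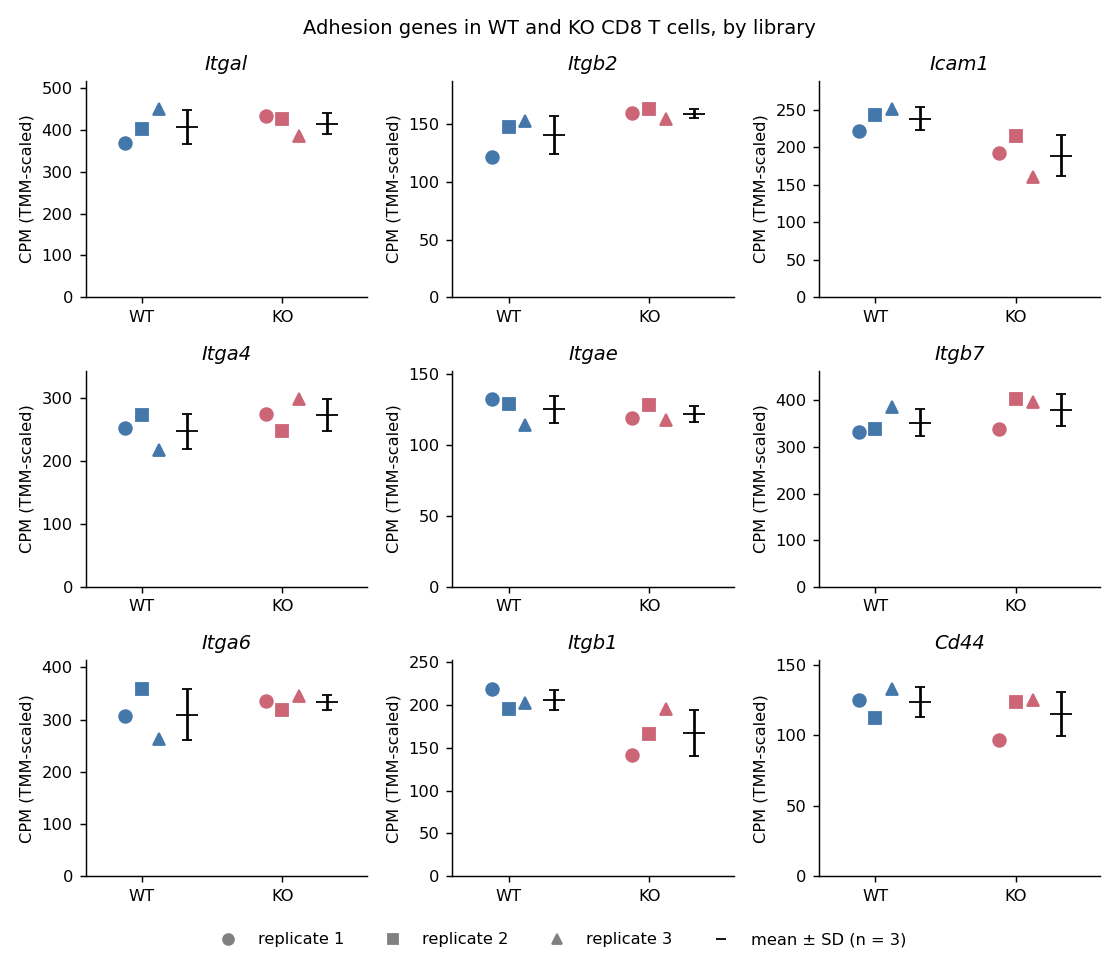
Each panel plots 1 gene, with TMM-scaled CPM from 0 on the vertical axis, WT libraries in blue, KO libraries in red, a marker shape per replicate number, and the mean ± SD of 3 libraries in black. The KO points of Icam1 and Itgb1 lie below all WT points and those of Itgb2 above them, while the other 6 panels overlap.

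The LFA-1 pair differed little between genotypes, and its ligand gene stood lower in KO. Itgal, the αL subunit (ENSMUSG00000030830), held 368, 401 and 450 CPM in the WT libraries and 434, 427 and 386 in the KO libraries. The groups overlapped throughout, with a log2 fold change of 0.03 and a 95% interval from -0.17 to 0.23. Itgb2, the β2 subunit shared by the leukocyte integrins (ENSMUSG00000000290), was at 122, 148 and 153 CPM in WT and at 159.5, 163 and 155 CPM in KO. All KO libraries lay above all WT libraries, but KO 3 exceeded WT 3 by little and WT 1 stood apart as the lowest. The log2 fold change of Itgb2 was 0.18 (95% interval -0.03 to 0.39, edgeR adjusted p = 0.523), and it was 0.09 without WT 1. The groups of Itgb2 overlapped when libraries were scaled by size alone or on genes averaging 5 CPM or more.

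Icam1, which encodes the ligand of LFA-1 (ENSMUSG00000037405), had the smallest p of the set. The WT libraries held 222, 243 and 251 CPM and the KO libraries 193, 215 and 160.0. The groups were separate, with KO 3 lowest, and the nearest pair was KO 2 and WT 1. Means were 239 ± 15.3 CPM for WT against 189 ± 27.7 for KO (SD, 3 libraries each). The log2 fold change was -0.33 (95% interval -0.58 to -0.09) with an edgeR adjusted p of 0.373 over all genes. Over 13 alternative settings the fold change stayed between -0.43 and -0.22 on the log2 scale. Its adjusted p ran from 0.0403, in the unfiltered edgeR fit, to 0.847, and this lowest value was the only one below 0.05. KO 3, the library lowest in Icam1, was also lowest in the T cell activation list (Cd69, Il2ra, Tfrc, Nr4a1, Myc and Mki67). Taking each gene relative to its average over the 6 libraries, the list's median was -0.33 on the log2 scale in KO 3 and from -0.12 to 0.18 elsewhere. Of its 6 genes 0 were called, 3 being higher and 3 lower in KO, and its summed level was 708 to 842 CPM in WT and 591 to 865 CPM in KO. The part of activation state in the Icam1 difference was not tested, and without KO 3 the log2 fold change was -0.22. Of the 10 interferon-stimulated genes 10 were higher in KO and 0 were called, with a summed level of 1826 to 2225 CPM in WT, about the same in KO 3 at 2017, and 3513 and 3412 CPM in KO 1 and KO 2. For Icam1, KO 1 and KO 2 lay between KO 3 and the WT libraries, and the part of the interferon-stimulated genes was not tested.

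Among the β1 and β7 integrins Itgb1 stood lower in KO, while the groups of its partners Itga4 and Itga6 overlapped. Itgb1, the β1 subunit (ENSMUSG00000025809), held 219, 195.3 and 202 CPM in the WT libraries and 141, 166 and 195.1 in the KO libraries. The groups were separate only by the narrow step between KO 3 and WT 2, and this step closed when libraries were scaled on genes averaging 5 CPM or more. Means were 205 ± 12.1 CPM for WT against 167 ± 26.9 for KO (SD, 3 libraries each), a log2 fold change of -0.30 (95% interval -0.55 to -0.04, edgeR adjusted p = 0.408). Without KO 1 the fold change was -0.19 on the log2 scale, and over the 13 alternatives the adjusted p stayed between 0.112 and 0.855.

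Itga4, the α4 subunit (ENSMUSG00000027009), was at 253, 273 and 217 CPM in WT and at 275, 248 and 299 CPM in KO. The groups overlapped, with WT 3 lowest, and the log2 fold change of 0.15 (95% interval -0.09 to 0.38) became 0.06 without WT 3 and 0.21 without KO 2, where the groups were separate. Itga6, the α6 subunit (ENSMUSG00000027111), was at 306, 359.5 and 262 CPM in WT and at 336, 318 and 345 CPM in KO. WT 2 was the highest library and WT 3 the lowest, so the KO values fell inside the WT range. The log2 fold change of Itga6 was 0.11 (95% interval -0.14 to 0.35), -0.00092 without WT 3, and 0.24 without WT 2, where the groups were separate.

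For both genes of CD103 the groups overlapped. Itgae, the αE subunit (ENSMUSG00000005947), was at 132, 128 and 114 CPM in WT and at 119, 128 and 118 CPM in KO. Its log2 fold change was -0.04 with a 95% interval from -0.23 to 0.15, and without WT 3 its groups were separate, KO being lower. Itgb7, the β7 subunit (ENSMUSG00000001281), was at 333, 338 and 385 CPM in WT and at 339, 403 and 396 CPM in KO. KO 1 lay among the WT libraries, and the log2 fold change was 0.11 (95% interval -0.10 to 0.32). It was 0.19 without KO 1 and 0.18 without WT 3, where the groups became separate, and 0.07 without KO 2. Cdh1, the gene of the CD103 ligand E-cadherin, was itself present in these libraries, at 16.6 to 22.6 CPM in WT and 12.1 to 29.9 CPM in KO.

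Cd44 (ENSMUSG00000005087) did not differ beyond the spread of the libraries. It was at 125, 112 and 133 CPM in WT and at 96.9, 123 and 125.0 CPM in KO. KO 1 alone lay below the WT range. The log2 fold change was -0.10 (95% interval -0.35 to 0.15), and 0.01 without KO 1.

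**Figure D2:**
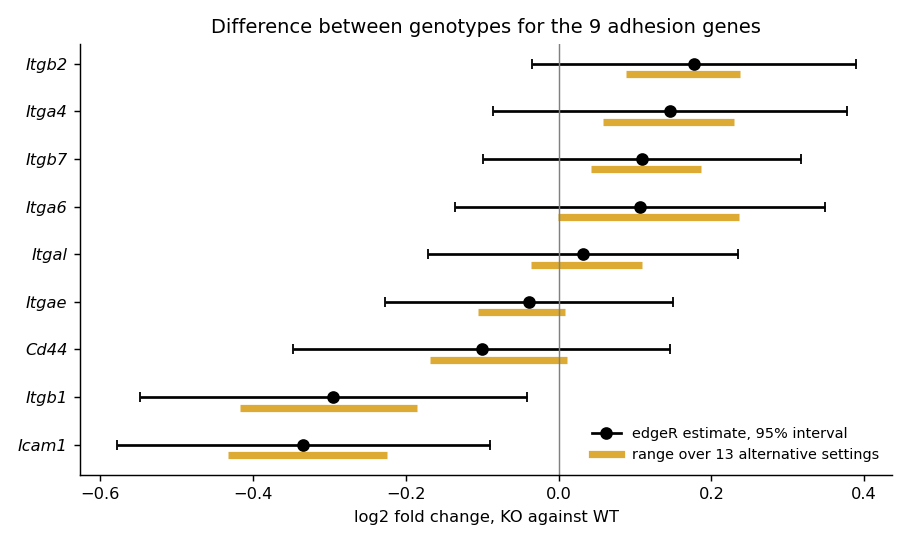
The horizontal axis gives the log2 fold change of KO against WT for the 9 genes. Black points carry 95% intervals computed from the edgeR fit, unadjusted for the number of genes, above yellow bars that span 13 alternative settings. The intervals of Icam1 (-0.58 to -0.09) and Itgb1 (-0.55 to -0.04) lie below 0, and the other 7 include 0.

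Levels were compared between genes as CPM per kilobase of exon, using the union of exons in GENCODE M21. Itgb7 was the most abundant of the 9, at 127 ± 10.4 in WT and 137 ± 12.7 in KO (CPM per kilobase, SD, n = 3 each). Every library of Itgb7 lay above every library of Itgal, the next gene, at 61.9 ± 6.23 and 63.2 ± 3.96 CPM per kilobase. Icam1, Itgb1 and Itgb2 followed with ranges that overlapped each other, and Icam1, reaching 57.6, also overlapped Itgal, whose lowest library was at 56.1 CPM per kilobase. Itga6, between 29.0 and 39.8, overlapped Itgb1, whose lowest library was at 34.6, and Itgae lay between 24.9 and 28.9 CPM per kilobase. Cd44 and Itga4 were lowest and overlapped, at 18.2 ± 1.55 and 17.7 ± 2.02 CPM per kilobase in WT. With the length of the longest coding transcript in place of the exon union, a choice made after the data were seen, Itgb7 was still highest and Itgae, Itga4 and Cd44 were still the lowest 3. Icam1 (94.1) and Itga6 (71.8) then moved up beside Itgal (77.8 CPM per kilobase in WT), so the order in the middle of the set depends on the length used.

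The ratio of partner genes within a library needs no scaling between libraries. Itga4 relative to Itgb1, as the log2 ratio of CPM per kilobase, came to -1.57, -1.29 and -1.67 for the WT libraries and -0.82, -1.19 and -1.16 for the KO libraries. The groups were separate, KO being higher by 0.45 on average, with an exact two-sided permutation p of 0.1, the smallest that 3 against 3 can give (0.333 adjusted over the 5 ratios). Itga6 relative to Itgb1 was -0.66, -0.26 and -0.77 in WT and 0.11, -0.20 and -0.32 in KO. KO 3 lay below WT 2, and the mean difference of 0.42 had an exact permutation p of 0.2. The mean level of this ratio was -0.56 in WT and -0.14 in KO by exon union. By the longest coding transcript it was 0.40 and 0.83, so which partner is in excess depends on the length used. Both ratios share Itgb1, so they are not separate evidence. Itgal relative to Itgb2 differed by -0.15 (exact permutation p = 0.2), Itgae relative to Itgb7 by -0.15 (exact p = 0.4) and Itga4 relative to Itgb7 by 0.04 (exact p = 0.8), and the groups of these 3 ratios overlapped. In every library Itgal exceeded Itgb2 per kilobase, whereas Itga4 and Itgae stood below Itgb7, the subunit for which both compete.

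**Figure D3:**
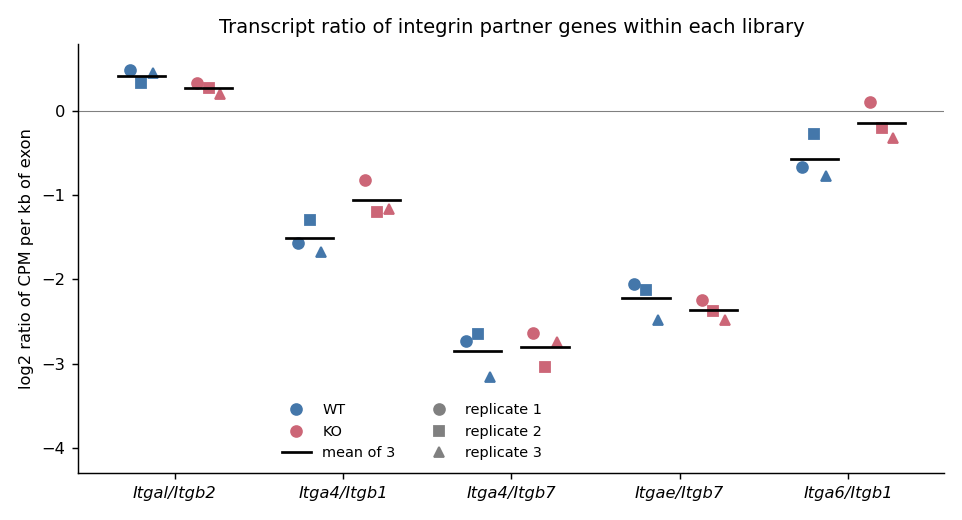
The vertical axis gives the log2 ratio of CPM per kilobase of exon of 2 partner genes in each library (WT blue, KO red, a marker shape per replicate, black lines for the mean of 3). The KO points of Itga4/Itgb1 lie above all WT points, and the groups of the other 4 ratios overlap.

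The remaining integrin subunits were scarce, apart from Itgav and Itgb3. Of 19 listed subunits 14 could be tested, and 0 passed over all genes by edgeR. KO was higher for 3 and lower for 11 of them, and their log2 fold changes had a median of -0.46. The libraries overlapped for the list as a whole. Relative to each gene's average over the 6 libraries, its median was 0.20, -0.24 and 0.46 for WT on the log2 scale. For KO it was -0.33, -0.07 and 0.05, so WT 2 lay below KO 2 and KO 3. WT and KO libraries did not overlap for 1 gene higher (Itgb5, named after its value was seen) and 2 lower (Itga1 and Itgb3), against 7.80% and 8.65% of all genes. Itga1, which pairs with Itgb1 as a collagen receptor, was at 2.38, 1.43 and 4.28 CPM in WT and at 0.322, 0.519 and 0.965 CPM in KO. KO lay below WT throughout, with a log2 fold change of -2.14 (95% interval -3.23 to -1.05, edgeR adjusted p = 0.330), and -1.65 without WT 3. Itgb3, the partner of αv in vitronectin receptors, was at 28.7, 33.5 and 30.9 CPM in WT and at 13.7, 23.8 and 23.3 CPM in KO. Its KO libraries were also all below WT, with a log2 fold change of -0.61 (95% interval -1.02 to -0.20, edgeR adjusted p = 0.365), and -0.39 without KO 1. Its partner Itgav was level, with a log2 fold change of 0.01, at 36.3 to 40.7 CPM across the 6 libraries. Itga10 (-0.70) and the myeloid subunit Itgax (-1.05) had lower means in KO on the log2 scale with overlapping groups, and without WT 3 their values were -0.36 and -0.43. In the unfiltered edgeR fit Itga1, Itgb3 and Itgax passed over all genes, with adjusted p-values of 3.08e-06, 0.00062 and 0.0027. That fit called 511 of 29109 genes. DESeq2 called 0 of this list, with an adjusted p of 0.0726 for Itgb3 and none given for Itga1. The platelet subunit Itga2b was at -0.46, or -0.04 without WT 3, which held its highest level of 23.0 CPM.

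Markers of antigen-experienced CD8 T cells were examined beside Itga1 and Itgb1. Of the 12 markers 8 were lower and 4 higher in KO, and 0 were called. Their summed level was 841 to 896 CPM in WT and 890 to 913 CPM in KO, most of it from Ly6c2 and Cxcr3. Relative to each gene's average over the 6 libraries, the list's median on the log2 scale was 0.40, -0.12 and 0.77 for WT and -0.59, -0.28 and -0.03 for KO. Among the KO libraries KO 1 was lowest and KO 3 highest, which is also their order in Itga1 and Itgb1. Among the WT libraries WT 3 was highest and WT 2 lowest, an order shared by Itga1 but not by Itgb1, which was highest in WT 1. Klrg1, a defining marker, had 0 reads in KO 1, which allows up to 0.0965 CPM there by counting error alone, 0.061 and 0.293 CPM in KO 2 and KO 3, and 0.559 to 3.21 CPM in WT. Eomes (0.40) and Ly6c2 (0.30) of the same list stood higher in KO on the log2 scale, with edgeR adjusted p-values of 0.352 and 0.435. The part of such cells in these differences was not tested. Among other cell types the 6 B cell markers summed to 247 to 386 CPM in WT and 234 to 297 CPM in KO, the 8 myeloid markers to 18.2 to 27.0 and 17.3 to 23.1 CPM, and the 5 NK cell markers to 9.94 to 10.2 and 3.34 to 5.70 CPM. Of the tested markers 6 of 6, 5 of 6 and 2 of 2 were lower in KO in these 3 lists. Most of the B cell sum came from Ighm, whose log2 fold change was -0.08, while the median of the B cell list was -0.42. The CD4 T cell markers Cd4, Zbtb7b and Foxp3 were lower in 3 of 3 cases, with a median log2 fold change of -0.75 and 0 called, their sum being 12.98 to 25.5 CPM over WT and 9.33 to 14.9 over KO libraries. Among myeloid markers Lyz2 and Csf1r stayed below 1 CPM in every library, while Cd68 was at 9.91 to 15.5 CPM and Fcgr3 at 3.28 to 6.93 CPM. Among NK cell markers Ncr1 stayed below 1 CPM, while Klrb1c was at 2.19 to 6.62 CPM and Klre1 at 1.09 to 5.05 CPM. The part of these cell types was not tested. The platelet genes Pf4 and Ppbp had 0 reads in all libraries, while the platelet gene Gp9 was at 0.153 to 0.544 CPM. The endothelial gene Kdr was at 1.48 to 4.87 CPM.

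Among genes that switch integrins to the active state or link them to actin, more were higher than lower in KO, again without a call. Of 23 listed genes 22 were tested, and KO was higher for 15 and lower for 7, or 12 and 10 when scaled by library size alone. The median log2 fold change was 0.09, and 0 passed over all genes by edgeR. The groups did not overlap for 5 genes higher (Fyb, Rassf5, Rasgrp1 and, named after their values were seen, Rap1b and Apbb1ip) and 1 lower, against 7.80% and 8.65% of all genes. Fyb, the adaptor ADAP that links the T cell receptor to RAP1 and integrins, was at 220, 261 and 238 CPM in WT and at 322, 323 and 312 CPM in KO. Every KO library exceeded every WT library, with a log2 fold change of 0.41 (95% interval 0.23 to 0.60). Its edgeR adjusted p was 0.298, and over 13 alternatives it ran from 0.00145 to 0.847, passing by DESeq2 (0.00489) and in the unfiltered edgeR fit. Rassf5, the RAP1 effector RAPL that binds LFA-1, was at 213, 236 and 204 CPM in WT and at 275, 249 and 273 CPM in KO, a log2 fold change of 0.29 (edgeR adjusted p = 0.354). Rasgrp1, an exchange factor activated by diacylglycerol, was at 0.22 and the GTPase gene Rap1a at 0.27 on the log2 scale, with edgeR adjusted p-values of 0.376 and 0.415. Tln1, the talin that binds β subunit tails, was the 1 gene lower without overlap, at 637, 674 and 701 CPM in WT and 564, 607 and 620 CPM in KO. Flna and Stk4, which had the most CPM of this list before any division by length, had log2 fold changes of -0.02 and 0.07.

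Of the 7 integrin ligands besides Icam1, 5 were tested and 0 were called. Icam2, the constitutive LFA-1 ligand of lymphocytes, was level at 54.7 to 62.9 CPM in WT and 54.1 to 63.3 CPM in KO. Vcam1, Fn1 and F11r stayed at or below 1.52 CPM in every library, and Icam4 had 0 reads in all of them.

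Among other adhesion receptors too, more were higher than lower in KO. Of 20 genes 19 were tested, and KO was higher for 15 and lower for 4, or 14 and 5 when scaled by library size alone. The median log2 fold change was 0.11, 0 were called by edgeR, and the groups did not overlap for 3 genes higher (Cd6, Cd2 and, named after its value was seen, Cd96) and 0 lower, against 7.80% and 8.65% of all genes. Cd6, a receptor for ALCAM, was at 122, 138 and 161 CPM in WT and at 174, 170 and 168 CPM in KO, a log2 fold change of 0.28. Cd2, a receptor for CD48, was at 231, 248 and 215 CPM in WT and at 249, 286 and 269 CPM in KO, with WT 2 just below KO 1. Pecam1 (0.29) and the sialomucin gene Spn (0.27) had higher means on the log2 scale with overlapping groups. The edgeR adjusted p-values of these 4 genes were 0.392, 0.432, 0.392 and 0.408. Selplg, the selectin ligand PSGL-1, was at 608 to 760.0 CPM in WT and 604 to 852 CPM in KO. The CD8 T cell identity genes were also higher in KO, 7 of 7 with a median log2 fold change of 0.19 and 0 called, and their part in the counts of receptors was not tested.

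**Figure D4:**
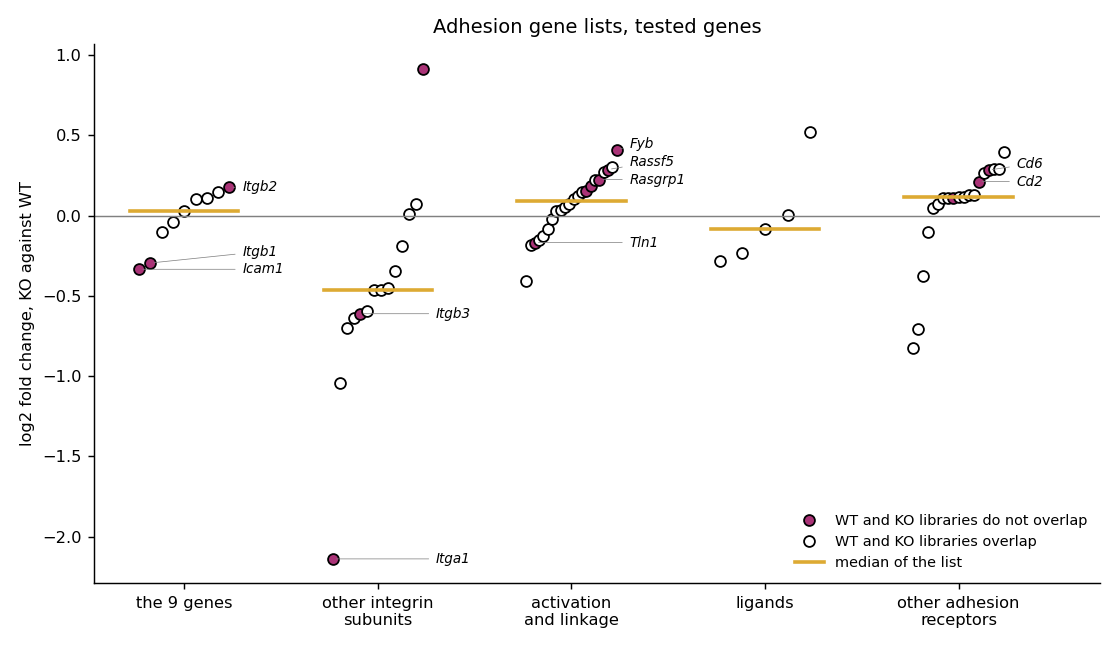
Each point is a tested gene, with its log2 fold change of KO against WT on the vertical axis, sorted within 5 lists. Filled points mark genes whose WT and KO libraries do not overlap, with names for genes described in the text, and yellow lines mark list medians, from -0.46 for the other integrin subunits to 0.11 for the other adhesion receptors.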

How the data were processed

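Per the labels' protocols, Trizol was used for RNA and a Vazyme kit for mRNA libraries. The authors deposited raw counts of reads for each Ensembl gene in 3 WT and 3 KO samples. GRCm39, HISAT2, Subread and featureCounts are named in the submitters' processing notes. The sources used here give no versions, strand setting or multi-mapping rule, so overlapping genes on opposite strands cannot be told apart. Symbols and exon lengths came from GENCODE M21 (GRCm38), which named 52029 of 57010 identifiers.

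Groups were taken from the genotype labels. R 4.3.3 with edgeR 4.0.16 was used: filterByExpr (minimum count 10, minimum total 15), TMM, glmQLFit and glmQLFTest, two-sided, Benjamini-Hochberg over 16439 genes. Intervals are 95% and unadjusted. They are not edgeR output but were built from the Fisher information of its fit, scaled by the posterior quasi-dispersion. They need not match its test exactly. DESeq2 1.42.0 was an alternative. Partner ratios used exact permutation tests in SciPy 1.17.1. Deviations used log2 of CPM plus 0.5. The fit was tested on simulated counts. The planned search of integrin protein tails was not run.

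The 9 genes and the lists were chosen with earlier results of these data known. All 9 are named, and from each adhesion list up to 4 genes of smallest p and 3 of highest level, of which 1 is not reported here. Of the marker lists, genes named beyond the 3 of highest level and those at 0 (Cd3e, Gzma, Klrg1, Eomes, Lyz2, Csf1r and Ncr1) were picked after their values were seen. Replicates differed beyond sampling noise (chi-square per gene from 16.0 to 40.4 within groups).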

Additional observations from a re-analysis of the deposited data

How the results depend on the processing

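The 2 genes called over all genes became 153 with DESeq2, 511 without a filter on low counts, 6 with Xist status as a term (chosen after the data were seen), and 2 to 80 with 1 library left out, the 80 being without KO 3. Of the 9 adhesion genes 0 were called in each of these settings except the unfiltered fit, where 1, Icam1, passed. Non-overlapping genes among the 9 numbered 1 to 5, with 1 when only genes averaging 5 CPM or more were kept and 5 without WT 3. Groups separate more easily with 1 library left out, and the share of all genes was not computed for these settings. The same limit holds for each gene described above as separate without 1 library.

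Signs changed only for values near 0 or scarce genes, and the cause was not tested. With library size as the only scaling, which moved the median of all genes to -0.08, the log2 fold change was -0.036 for Itgal, -0.055 for Itgav and -0.061 for Icam2. With genes averaging 5 CPM or more it was -0.011 for Itgav and -0.017 for Icam2. With 1 library left out it ran from -0.16 to 0.011 for Cd44, -0.10 to 0.0084 for Itgae, -0.029 to 0.11 for Itgal, -0.00092 to 0.24 for Itga6, -0.033 to 0.057 for Itgav, -0.083 to 0.058 for Flna, -0.059 to 0.076 for Icam2, -0.081 to 1.10 for Vcam1, -0.65 to 0.084 for Fn1, -0.79 to 0.26 for F11r and -0.59 to 0.15 for Cdh1. The Itga4/Itgb7 difference ran from -0.12 to 0.16, and the other 4 ratios kept their sign.

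Same-numbered WT and KO samples did not deviate together (correlations of 0.04, -0.51 and -0.11), so the numbers were not taken as pairs. Some differently numbered samples did, with 0.64 for WT 3 and KO 2, 0.56 for WT 2 and KO 1, and 0.26 for WT 1 and KO 3. The remaining correlations ran from -0.51 to -0.07. The fit with Xist status as a term took up what WT 3 and KO 2 share. No model here took up the shared deviation of the other pairs, and the cause was not tested for any. With the replicate number as a block 2 genes were called, 0 of the 9 among them, and the log2 fold change was -0.34 for Icam1 and -0.31 for Itgb1. In the ratio tests a block of 3 pairs cannot go below an exact p of 0.25, the value for Itga4/Itgb1. Depth does not limit the 9 genes, and the subunits near 1 CPM rest on few reads.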

Other observations

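Some of the adhesion genes were at the same extreme of their genotype in both libraries that carry Xist. WT 3 and KO 2, the 2 libraries with Xist, were the lowest of their genotype for Itga4 (217 and 248 CPM) and Itga6 (262 and 318 CPM). For Itgb7 (385 and 403 CPM), Icam1 (251 and 215 CPM) and Itgb2 (153 and 163 CPM) they were the highest. The margin was small for Itgb2, with WT 2 at 148 and KO 1 at 159.5 CPM. In each genotype some library is always lowest and some highest. The share of all genes that are extreme in both libraries was not computed, so the pattern cannot be called particular to these genes. Over genes averaging 5 CPM or more, the deviations of WT 3 and KO 2 from their genotype means correlated at 0.64. A model with genotype and a term for these 2 libraries against the other 4 was chosen after the data were seen. Its log2 difference was -0.24 for Itga4, -0.22 for Itga6, 0.17 for Itgb7, 0.20 for Icam1 and 0.12 for Itgb2. These genes were picked as extreme in the same 2 libraries, so the signs followed from the choice and add no evidence. For the other members it was 0.16 for Cd44, 0.14 for Itgal, -0.04 for Itgae and -0.03 for Itgb1. None of the 9 passed over all genes by edgeR (adjusted p = 0.431 for Itga4, the smallest), where 0.0426% of all genes did. Of these 2 libraries WT 3 was the shallowest of all, at 26150420 counts, while KO 2 held 33848339. The part of depth in this pattern was not tested.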
